A study of Rattus norvegicus with 35 samples.

Results

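miR-126a is a microRNA (miRNA, a short RNA that represses messenger RNAs) made from a hairpin inside the gene Egfl7. The 2 mature products of that hairpin, miR-126a-3p and miR-126a-5p, were taken by name from a table of 763 rat miRNAs counted by small RNA sequencing in liver. Both rows were present and both passed the filter on low counts, which kept 328 of the 763. The 35 liver samples were from Sprague-Dawley males aged 6 weeks, which received oral doses daily over 3, 7 or 14 days, and tissue was taken 24 h after the final dose. Ketoconazole, an azole antifungal drug that can injure the liver, was given at 10 mg/kg (low), 30 mg/kg (middle) or 100 mg/kg (high), and controls received its vehicle, 0.5% methylcellulose. Each of the 12 combinations of dose and day had 3 samples, except control day 14, which had 2. Replicates carry numbers in the labels, and whether these are different animals is not said there. The p-values therefore cover the sample-to-sample spread, which may be technical.

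In vertebrates miR-126 is best known as an endothelial miRNA. Its 3p product represses Spred1 and Pik3r2, which restrain signalling from the vascular growth factor VEGF, and its loss makes vessels leaky in mice. The 5p product has targets of its own, among them Dlk1, an inhibitor of Notch signalling, in mouse endothelium. In liver the endothelium lines the sinusoids, and most of the tissue consists of hepatocytes, which are not known as a source of miR-126.

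The sequences of both products and of miR-126b, which is read from the opposite strand of the same place, are shown because they decide which reads can be told apart. They are from RefSeq on build GRCr8 and run 5′ to 3′, with the seed (bases 2 to 8, which pair with targets) in capitals.
miR-126a-3p: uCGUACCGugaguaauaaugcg
miR-126a-5p: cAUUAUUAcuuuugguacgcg
miR-126b: uACCAAAAguaauaaugugcug
miR-126a-5p lies at chr3:29813182-29813202 and miR-126a-3p at chr3:29813219-29813240, both on the plus strand and 16 bases apart, and miR-126b lies at chr3:29813177-29813198 on the minus strand. All 3 are within the span of Egfl7 in that annotation, which gives the plus-strand locus the symbol Mir126b and the minus-strand locus Mir126a, so the gene symbols run against the miRNA names. The 2 arms have different seeds, CGUACCG and AUUAUUA. Of the 763 rows, 686 matched a RefSeq mature sequence, and 0 of these other than the arm itself carried either seed. miR-126b is complementary to miR-126a-5p over 17 bases and shares a run of 10 bases, in the same sense, with miR-126a-3p. miR-126b had 23 counts in all, in 12 of the 35 libraries and at most 3 in one, against 867937 counts of miR-126a-3p and 2724065 of miR-126a-5p, and it was not tested.

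Library depth lay between 2665943 and 9665416 counts (median 3758063). The hepatocyte miRNAs miR-192-5p and miR-122-5p averaged 173034 and 32406 CPM (counts scaled to a common library total with TMM factors), which places the tissue as liver. The table holds miRNAs only and no endothelial messenger RNA, so the endothelial name of the arms rests on background and was not tested. Before any test the libraries fell into 2 clusters on the first principal component of all miRNAs. The 21 libraries from middle dose, high dose and low dose day 7 livers scored from 4.24 to 6.47, and the 14 libraries of the controls and of low dose days 3 and 14 from -14.49 to -4.32. Control day 7 replicates 2 and 3 stood farthest out, at -14.49 and -13.26. The labels name no batch, so in every comparison between doses that crosses these clusters dose and cluster cannot be told apart. Within the low dose, day 7 against days 3 and 14 also crosses them, and there day and cluster cannot be told apart.

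Both arms were abundant, and the 5p arm was the more abundant one in every library. miR-126a-5p held rank 11 to 16 among all miRNAs and 1.31 to 2.86% of the counts of a library, and miR-126a-3p rank 17 to 31 and 0.368 to 1.32%. In all 35 libraries miR-126a-5p thus had more counts than miR-126a-3p, on average 3.24 times as many. Of 96 hairpins with both arms tested, 61 had more 5p than 3p counts.

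Both miR-126a arms fell at the high dose on each day. On day 3 miR-126a-3p had 4930.8, 4689.8 and 4947 CPM in the high dose livers, against 7889, 7415 and 6475 CPM in control livers. On day 7 it had 5022, 4944 and 4633 CPM at the high dose, against 7552, 13342 and 10863 CPM in controls. On day 14 it had 5134, 4616 and 4896 CPM at the high dose, against 6427 and 8101 CPM in controls. The 9 high dose values lay between 4616 and 5134 CPM, below each of the 8 control values, and the controls themselves spread most on day 7. An average over days with all 9 high dose libraries below all 8 controls was seen in 10.4% of the 328 miRNAs. In edgeR the change of miR-126a-3p was -0.58 ± 0.16 on day 3 (log2 fold change ± SE, adjusted p = 0.00384), -1.12 ± 0.16 on day 7 (adjusted p = 6.06e-07) and -0.57 ± 0.17 on day 14 (adjusted p = 0.0107). Among all miRNAs, 35.1% passed an adjusted p of 0.05 on day 3, 51.8% on day 7 and 35.4% on day 14, so a call by itself was common in these data.

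**Figure D1:**
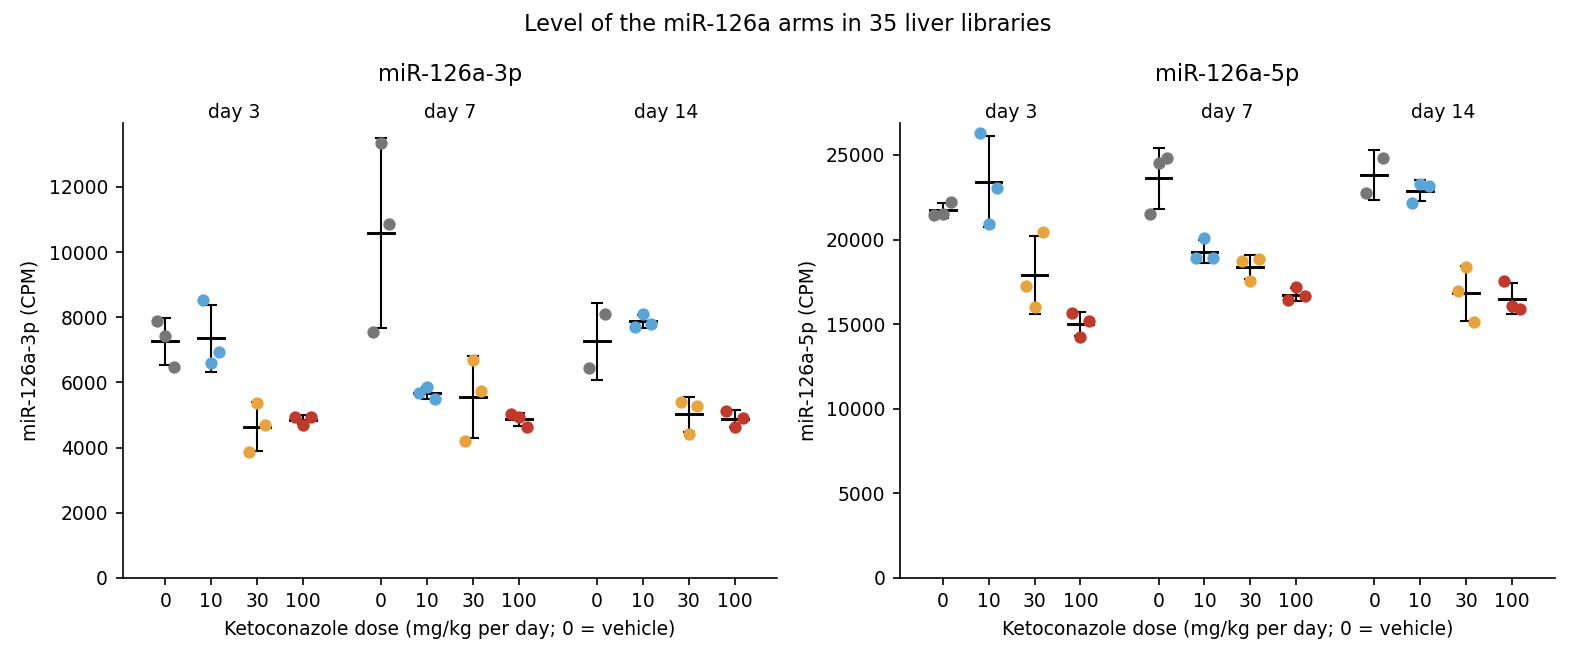
TMM-scaled CPM of miR-126a-3p on the left and miR-126a-5p on the right in each of the 35 libraries, by dose in mg/kg per day within each day, where 0 is vehicle. Points are libraries, bars the mean and whiskers the SD. High and middle dose points lie low on all days, low dose points lie low on day 7 only, and control day 7 spreads from 7552 to 13342 CPM for miR-126a-3p.

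miR-126a-5p, the more abundant product, moved by a similar amount on each day with TMM scaling. On day 3 it had 15654, 14219 and 15165 CPM at the high dose, against 21467, 21489 and 22231 CPM in controls. On day 7 it had 16416, 17167 and 16651 CPM at the high dose, against 21522, 24513 and 24818 CPM in controls. On day 14 it had 17567, 16082 and 15863 CPM at the high dose, against 22777 and 24839 CPM in controls. No high dose library reached the lowest control. The fall of miR-126a-5p was -0.53 ± 0.10 on day 3 (adjusted p = 4.09e-05), -0.50 ± 0.10 on day 7 (adjusted p = 6.83e-05) and -0.53 ± 0.11 on day 14 (adjusted p = 0.000193) in edgeR. The median change of all miRNAs was 0 on day 3, -0.13 on day 7 and 0.03 on day 14. Non-overlap in that direction, with every high dose library below its controls, was seen in 22.9% of miRNAs on day 3, 29.9% on day 7 and 27.7% on day 14. The day 7 call of miR-126a-5p ended with no low-count filter, at -0.28 (adjusted p = 0.0642).

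Averaged over the 3 days, the high dose left miR-126a-3p at 0.591 times and miR-126a-5p at 0.698 times the control level. These are changes of -40.9% and -30.2%, or -0.76 ± 0.09 (adjusted p = 2.89e-08) and -0.52 ± 0.06 (adjusted p = 2.68e-09) on the log2 scale in edgeR. The 95% intervals of the log2 changes were -0.95 to -0.57 for miR-126a-3p and -0.64 to -0.40 for miR-126a-5p. In the same average 62.8% of the 328 miRNAs were called and 31.4% were called lower, and the median change of all was -0.04. By size of change miR-126a-3p stood low among them, with 9.45% of miRNAs changing further downward, and miR-126a-5p less so, with 20.4%. The gap between the arms was smaller without day 7, where the averages were -0.58 for miR-126a-3p and -0.53 for miR-126a-5p. Without both control day 7 libraries that stood farthest out, which leaves replicate 1 as the only control of that day, the averages were -0.65 for miR-126a-3p and -0.53 for miR-126a-5p. In RNA of whole liver, fewer cells of a type and less RNA per cell cannot be told apart.

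The high dose effect did not differ between days beyond the adjusted threshold. Day 7 minus day 3 gave -0.54 ± 0.22 for miR-126a-3p (adjusted p = 0.375) and 0.04 ± 0.14 for miR-126a-5p (adjusted p = 0.935). Day 14 minus day 3 gave 0.01 ± 0.24 and 0.00 ± 0.14 for the same arms, each with an adjusted p of 0.997. By edgeR 0 of the 328 miRNAs passed either test, 36 and 24 had an unadjusted p under 0.05, and DESeq2 called 0 in each. The day 7 test called 19 when control day 7 replicate 1 was left out. The day 7 values of miR-126a-3p rest on its high controls. Without control day 7 replicates 2 and 3, which leaves replicate 1 as the only control of that day, its high dose change on day 7 was -0.66. This was close to the changes of days 3 and 14, and the day 7 minus day 3 difference was -0.06. Leaving out control day 7 replicate 2 alone took that difference to -0.23. Without control day 14 replicate 2 its day 14 change was -0.47 and no longer called (adjusted p = 0.0909), and without control day 14 replicate 1 it was -0.89.

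Both arms also fell at the middle dose. miR-126a-3p had 3873, 5361 and 4688 CPM on day 3, 4205, 6691 and 5743 CPM on day 7 and 5383, 4408 and 5259.6 CPM on day 14. On no day did these overlap the controls of the same day, though the highest, 6691 CPM on day 7, lay above the lowest control of another day, 6427 CPM. Its changes were -0.65 ± 0.16 (adjusted p = 0.00194), -0.93 ± 0.16 (adjusted p = 1.3e-05) and -0.53 ± 0.17 (adjusted p = 0.0211) on days 3, 7 and 14. miR-126a-5p had 17260.2, 15986 and 20460.5 CPM on day 3, 18733, 17541 and 18853 CPM on day 7 and 16950.2, 18380.3 and 15117 CPM on day 14. All 9 were below the lowest of the 8 controls, 21467 CPM, a pattern seen in 7.01% of miRNAs. Its changes were -0.28 ± 0.10 (adjusted p = 0.0206), -0.36 ± 0.10 (adjusted p = 0.00225) and -0.50 ± 0.11 (adjusted p = 0.000504) on the same days. For comparison, 38.1%, 50.9% and 28.4% of miRNAs were called on days 3, 7 and 14, and 22.3%, 22.3% and 20.1% had every middle dose library of the day below its controls.

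Some middle dose calls were thin. The day 14 call of miR-126a-3p ended without control day 14 replicate 2 (-0.43, adjusted p = 0.152) or middle dose day 14 replicate 2 (-0.52, adjusted p = 0.0602), and without control day 14 replicate 1 the change was -0.80. The day 3 call of miR-126a-5p ended without control day 3 replicate 3 (-0.29, adjusted p = 0.0509), without middle dose day 3 replicate 2 (-0.23, adjusted p = 0.113) and with no low-count filter (-0.26, adjusted p = 0.103), which also ended its day 7 call (-0.27, adjusted p = 0.0656). Averaged over days, the middle dose changes were -0.70 ± 0.09 for miR-126a-3p (adjusted p = 1.49e-07) and -0.38 ± 0.06 for miR-126a-5p (adjusted p = 1.12e-06), in a comparison that called 61.9% of miRNAs. The 2 doses share their controls, so their effects are not independent of each other.

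High and middle dose livers were also compared directly, which uses no control library and stays within 1 cluster. Averaged over days, high minus middle was -0.05 ± 0.09 for miR-126a-3p (adjusted p = 0.717, 95% interval -0.24 to 0.13) and -0.14 ± 0.06 for miR-126a-5p (adjusted p = 0.0774, interval -0.25 to -0.03). In that comparison 17.4% of miRNAs were called. Neither arm passed, and the interval of miR-126a-5p does not reach 0. The miR-126a-5p difference passed under the stricter low-count filter (-0.17, adjusted p = 0.0342), without middle dose day 3 replicate 2 (-0.17, adjusted p = 0.0352) and without middle dose day 14 replicate 3 (-0.16, adjusted p = 0.0372).

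At the low dose the arms were lower than control on day 7 and not detectably different on days 3 and 14. On day 7 miR-126a-3p had 5688, 5860.3 and 5485 CPM at the low dose, below the 3 controls given above, a change of -0.90 ± 0.16 (adjusted p = 2.17e-05). miR-126a-5p had 18881, 20084 and 18892 CPM, also below its 3 controls, a change of -0.29 ± 0.10 (adjusted p = 0.0126). In that comparison 45.1% of miRNAs were called and 20.4% had every low dose library below the controls. Without control day 7 replicates 2 and 3, with replicate 1 as the only control left, the change was -0.55 for miR-126a-3p and -0.30 for miR-126a-5p.

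On day 3 the low dose libraries had 8516, 6590.5 and 6943 CPM of miR-126a-3p and 26303, 20929 and 23044 CPM of miR-126a-5p. On day 14 they had 7712, 8106 and 7806 CPM of miR-126a-3p and 22161, 23294 and 23171 CPM of miR-126a-5p. These values overlapped those of the controls of their day for both arms. The changes of miR-126a-3p were 0.02 ± 0.16 on day 3 (adjusted p = 0.995) and 0.12 ± 0.18 on day 14 (adjusted p = 0.999). Those of miR-126a-5p were 0.11 ± 0.10 (adjusted p = 0.9) and -0.06 ± 0.11 (adjusted p = 0.999). On each day edgeR and DESeq2 called 0 miRNAs, with 25 and 11 at an unadjusted edgeR p under 0.05, and edgeR called 2 on day 3 without control day 3 replicate 1. The average over days 3 and 14 was 0.07 ± 0.12 for miR-126a-3p (adjusted p = 0.939, 95% interval -0.17 to 0.31) and 0.03 ± 0.07 for miR-126a-5p (adjusted p = 0.988, interval -0.12 to 0.17). These are comparisons within the other cluster, and edgeR called 0 of the 328 miRNAs, DESeq2 likewise 0, while 16 had an unadjusted edgeR p under 0.05. Without control day 14 replicate 2 edgeR called 3.

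**Figure D2:**
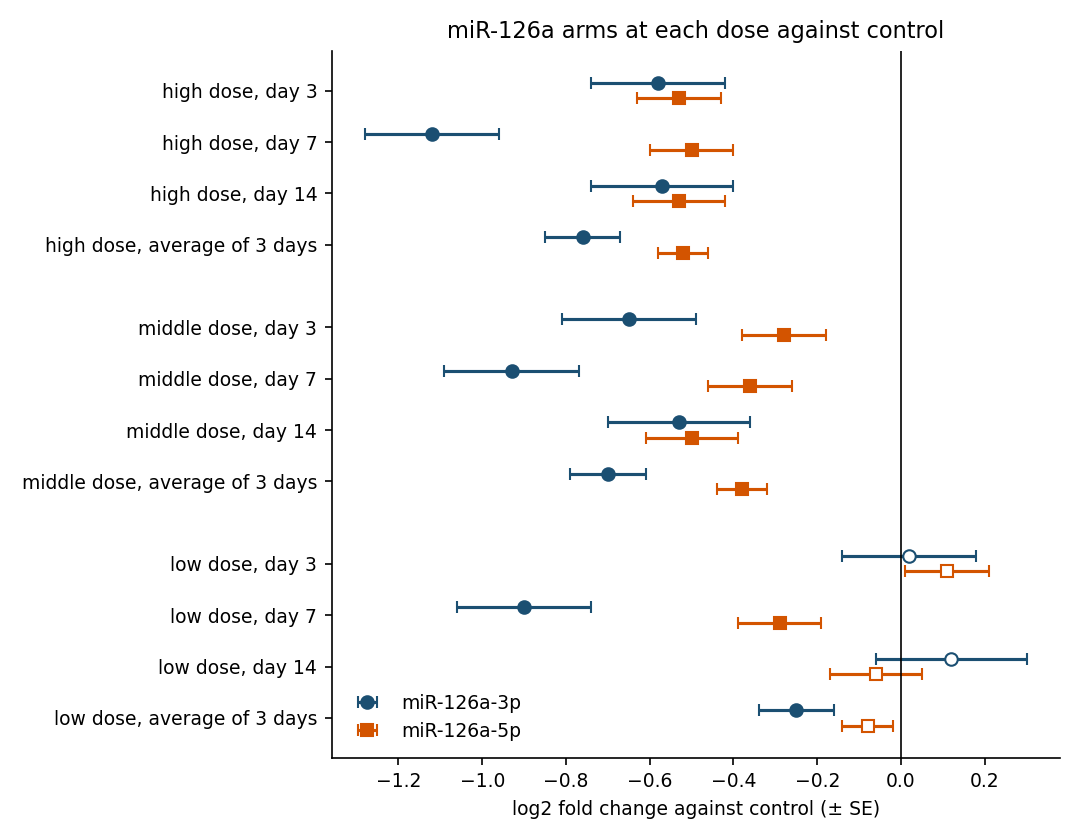
log2 fold change ± SE against control of miR-126a-3p (circles) and miR-126a-5p (squares) for the high, middle and low dose on each day and averaged over days. Filled symbols passed an adjusted p of 0.05 in edgeR and open ones did not. High and middle dose symbols lie between -1.12 and -0.28, and low dose symbols lie between -0.06 and 0.12 on days 3 and 14.

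Whether the low dose effect depended on day had its own test. The low dose effect on day 7 minus that on days 3 and 14 was -0.97 ± 0.20 for miR-126a-3p (adjusted p = 0.000222) and -0.32 ± 0.12 for miR-126a-5p (adjusted p = 0.0359), where 37.5% of miRNAs were called. Without control day 7 replicates 2 and 3 these were -0.58 and -0.29, with replicate 1 as the only control left on that day, so whether they pass was not read from it. The miR-126a-5p call ended without low dose day 3 replicate 1 (-0.27), low dose day 7 replicate 1 (-0.30) or low dose day 7 replicate 3 (-0.30). Within the low dose alone, day 7 minus days 3 and 14 gave -0.42 ± 0.14 for miR-126a-3p (adjusted p = 0.0192) and -0.26 ± 0.08 for miR-126a-5p (adjusted p = 0.0161). In that comparison 30.2% of miRNAs were called and 8.23% had all 3 day 7 libraries below the other 6, as both arms did. Both of these calls without controls ended when low dose day 3 replicate 1 was left out (-0.36 and -0.22) or low dose day 7 replicate 1 or 3 (-0.42 and -0.40 for miR-126a-3p, -0.25 for miR-126a-5p each time), with adjusted p from 0.0527 to 0.0736. The miR-126a-5p value was -0.41 or -0.42 when low dose day 3 replicate 2 or any 1 of the day 14 libraries was left out. Filter and scaling were redone in each of these fits, so the values hold a change of scaling as well as the loss of a library. DESeq2 size factors moved the median of all miRNAs in low dose day 7 minus days 3 and 14 by -0.15. Over all 3 days the low dose average was -0.25 ± 0.09 for miR-126a-3p, at an adjusted p of 0.0497, and -0.08 ± 0.06 for miR-126a-5p (adjusted p = 0.343), with 22.6% of miRNAs called. Without day 7 the miR-126a-3p value was 0.07, and without control day 7 replicates 2 and 3 it was -0.17. Leaving out any of 8 single libraries ended the call, while without control day 14 replicate 1 the value was -0.41. The miR-126a-5p average passed without control day 7 replicate 1 (-0.16, adjusted p = 0.031) or control day 14 replicate 1 (-0.20, adjusted p = 0.0138).

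On day 7, where the low, middle and high doses all lie in 1 cluster, the doses did not differ beyond the threshold. High minus low was -0.22 ± 0.16 for miR-126a-3p (adjusted p = 0.319) and -0.20 ± 0.10 for miR-126a-5p (adjusted p = 0.117), with 24.1% of miRNAs called. All 3 high dose libraries were below all 3 low dose libraries for both arms, as in 31.4% of miRNAs. The median change of all 328 miRNAs was itself -0.20 here. Further downward changes were seen in 48.5% of miRNAs for miR-126a-3p and 49.4% for miR-126a-5p, so neither arm stood apart from the rest. DESeq2 size factors moved the median of all miRNAs in this comparison by 0.16. Without high dose day 7 replicate 3, with filter and scaling redone, the differences were -0.01 for miR-126a-3p and -0.03 for miR-126a-5p. Middle minus low was -0.03 ± 0.16 (adjusted p = 0.914) and -0.07 ± 0.10 (adjusted p = 0.673), with 10.1% called, and miR-126a-5p was again lower without overlap, as in 23.5% of miRNAs. The 95% intervals for high minus low were -0.54 to 0.10 for miR-126a-3p and -0.40 to -0.01 for miR-126a-5p. Neither arm was called in any comparison within a cluster by the fit described, so each of their calls crosses from one cluster to the other.

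The controls varied with day in one arm more than in the other. Control day 7 minus control day 3 was 0.54 ± 0.16 for miR-126a-3p, which did not pass (adjusted p = 0.0534), and 0.12 ± 0.10 for miR-126a-5p (adjusted p = 0.488), with 1.52% of miRNAs called. Without control day 7 replicate 1 the miR-126a-3p difference was 0.63 and passed (adjusted p = 0.00306), and DESeq2 called it at 0.51 (adjusted p = 0.0297). It was 0.07 when replicates 2 and 3 of control day 7 were left out. Control day 14 minus control day 3 was 0.00 ± 0.18 for miR-126a-3p and 0.13 ± 0.11 for miR-126a-5p, with adjusted p of 0.996 and 0.699.

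Ordered by mean level, the 12 groups split in the same place for both arms. miR-126a-3p was highest in control day 7, at 10586 ± 2905 CPM (SD, n = 3), followed by low dose day 14 at 7875 ± 206, low dose day 3 at 7350.0 ± 1025, control day 14 at 7264 ± 1184 (n = 2) and control day 3 at 7260.0 ± 720. Then came low dose day 7 at 5678 ± 188 CPM, and the 6 middle and high dose groups followed, down to 4641 ± 745 CPM in middle dose day 3. Only 2 steps in this order exceeded the spread of the neighbouring groups (the root mean square of their SDs), that below control day 7 and that between control day 3 and low dose day 7. From low dose day 7 downward no neighbours differed beyond their spread. miR-126a-5p ran from 23808 ± 1459 CPM in control day 14 (n = 2) to 21729 ± 435 in control day 3 over the same 5 groups, in another order, and from 19286 ± 692 CPM in low dose day 7 to 15013 ± 729 in high dose day 3 over the others. Its neighbours differed beyond their spread below low dose day 14, control day 3, low dose day 7 and high dose day 14. Over single libraries the cluster of 21 had 3873 to 6691 CPM of miR-126a-3p (median 4947) and the cluster of 14 had 6427 to 13342 CPM (median 7759), which overlap slightly. For miR-126a-5p the 21 had 14219 to 20460.5 CPM (median 17167) and the 14 had 20929 to 26303 CPM (median 22910.3). The clusters were drawn from all miRNAs, the arms included. The share of miRNAs that separate between them was not counted, so these ranges are a description only.

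**Figure D3:**
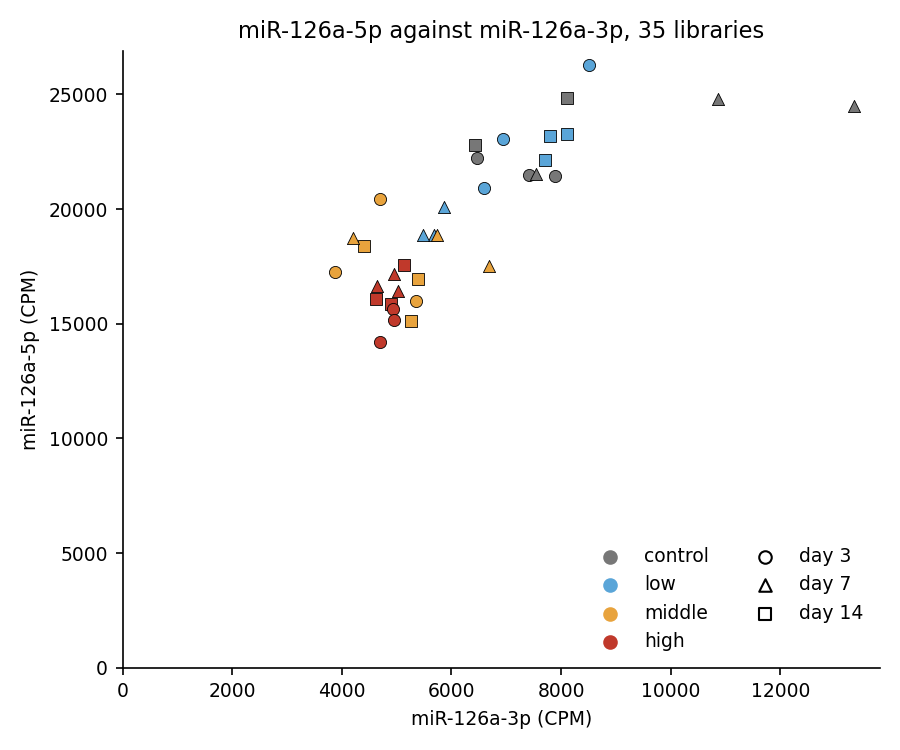
miR-126a-5p against miR-126a-3p (both in CPM) in the 35 libraries, coloured by dose and shaped by day. Controls and low dose days 3 and 14 sit above and to the right, with miR-126a-5p at or above 20929 CPM, and 2 control day 7 libraries lie far to the right at 10863 and 13342 CPM of miR-126a-3p.

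The balance of the arms was read from counts within a library, which needs no scaling. The 3p arm made up 21.8 to 24.8% of the miR-126a counts in the 9 high dose livers (median 23.4%), 18.3 to 27.6% in the 9 middle dose livers (median 23.3%), 22.5 to 25.8% in the 9 low dose livers (median 23.9%) and 22.0 to 35.2% in the 8 control livers (median 25.8%). The exact 95% binomial intervals of single libraries reached at most 0.37 points to each side, and they cover counting error only. Control day 7 replicates 2 and 3 had the highest shares of all, 35.2% and 30.4%. The other 6 controls had 22.0 to 26.9%, a range that holds the shares of most treated livers.

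The log2 ratio of 3p to 5p counts averaged -1.72 at the high dose and -1.50 in controls. The difference of -0.22 had an exact two-sided permutation p of 0.0325, with labels permuted within days, and 0.0519 after adjustment over 96 hairpins. Of those hairpins 60.4% were called, 25% with a lower ratio. By day the difference was -0.04 on day 3, -0.59 on day 7 and -0.04 on day 14. With control day 7 replicates 2 and 3 left out, and replicate 1 the only control of that day, the average difference was -0.12. At the middle dose the ratio was lower by -0.32 on average (exact permutation p = 0.0415, adjusted p = 0.0668), and by -0.37, -0.56 and -0.03 on days 3, 7 and 14, with 55.2% of hairpins called. At the low dose the difference was -0.16 (exact permutation p = 0.178, adjusted p = 0.373), with 0 of 96 hairpins called. High minus middle was 0.09 (exact permutation p = 0.404, adjusted p = 0.569), with 24% of hairpins called. None of the 4 tests of arm balance passed after adjustment, and the adjusted p of the high dose came to 0.0133 when control day 3 replicate 3 was left out, 0.0227 for control day 14 replicate 1, 0.0468 for high dose day 14 replicate 3 and 0.0489 for control day 7 replicate 1. That of the middle dose came to 0.0436 and 0.0424 without replicate 2 of day 3 and replicate 3 of day 14 of that dose.

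**Figure D4:**
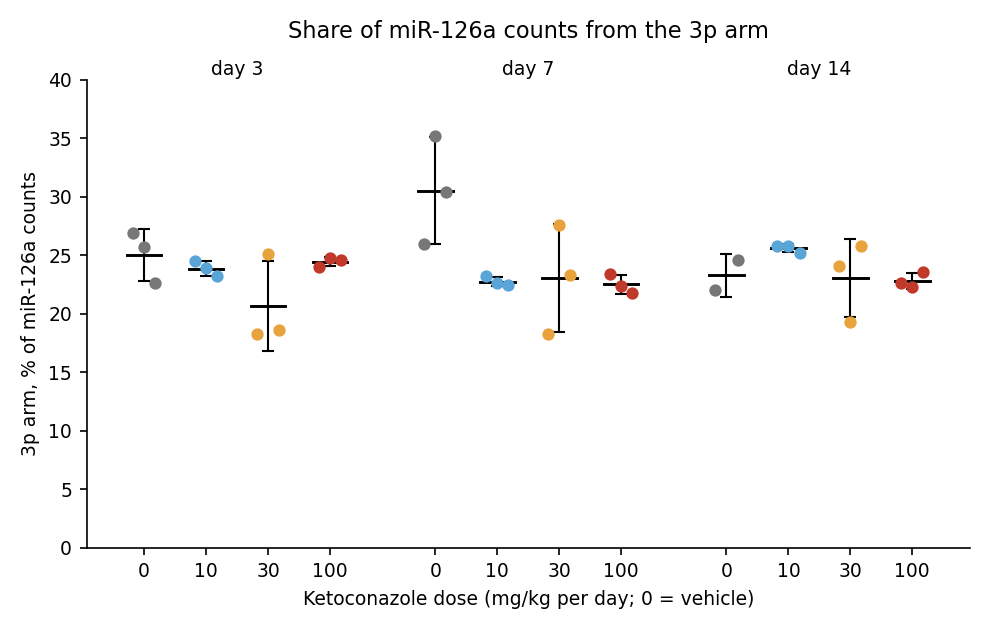
Share of miR-126a counts from the 3p arm (%) in each library, by dose in mg/kg per day within each day. Points are libraries, bars the mean and whiskers the SD. Most libraries lie between 22 and 26%, control day 7 reaches 35.2% and 4 middle dose libraries lie between 18.3 and 19.3%.

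Within groups no relation between the arms was detected. The deviations of their log2 CPM from the group means had a Pearson r of 0.22 (permutation p = 0.373) and a Spearman rho of 0.28 (permutation p = 0.233) over 35 libraries in 12 groups, the only relation of this kind given a test. Without the 2 libraries farthest from the median, control day 7 replicate 1 and middle dose day 7 replicate 1, r was 0.15 over 33. Over the 12 group means the arms had an r of 0.90, which mostly restates that both are lower in the same 7 groups.

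The miRNAs whose 12 group means ran most like those of miR-126a-3p, out of 240 with a mean of at least 10 CPM, were miR-16-5p (r = 0.97), miR-23b-3p (0.95), miR-139-5p (0.94), miR-24-3p (0.94) and miR-15a-5p (0.94). miR-16-5p and miR-15a-5p are known for restraining the cell cycle, and miR-23b-3p and miR-24-3p come from one genomic cluster. miR-16-5p had 5390 to 7067 CPM at the high dose (median 5851) and 8743 to 19836 CPM in controls (median 11773), a change of -1.04 ± 0.09 (adjusted p = 2.58e-11). For miR-126a-5p they were miR-214-3p (0.94), miR-363-3p (0.94), miR-676 (0.93), miR-139-5p (0.92) and miR-497-5p (0.91). miR-363-3p was far scarcer, with 12.9 to 22.2 CPM at the high dose (median 16.3) and 30.7 to 72 CPM in controls (median 46.2). miR-139-5p was named for both arms and had 88.2 to 126.4 CPM at the high dose and 128.1 to 206.8 CPM in controls. These 12 points share libraries, scaling and the split into clusters, and the correlations are descriptions. In this ranking 18 miRNAs followed miR-126a-3p more closely than miR-126a-5p did, and the 5 named for miR-126a-5p were those that followed it more closely than miR-126a-3p did.

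Other miRNAs linked to endothelium or vessel growth went both ways. Of 41 listed beside the arms, 39 were in the table and 34 were tested. In the high dose average 18 of the 34 fell, 8 rose and 8 did not pass, with a median of -0.32 against -0.04 for all 328. That is 52.9% called lower and 76.5% called in all, against 31.4% and 62.8% of all miRNAs, and 3 of the 41 are also in a list of another cell type. miR-222-3p and miR-221-3p, which act on the receptor c-Kit in human endothelial cells, rose by 2.60 ± 0.18 and 1.56 ± 0.18. miR-222-3p had 33.3 to 44.9 CPM at the high dose and 2.52 to 13.6 CPM in controls. miR-92a-3p, an inhibitor of vessel growth in mice, rose by 1.06 ± 0.10, with 9785 to 13004 CPM at the high dose and 4215 to 6245 CPM in controls. miR-34a-5p, a p53 target, rose by 1.09 ± 0.19. Besides miR-16-5p, the largest falls were those of miR-100-5p at -0.91 ± 0.15, miR-322-5p, the rodent counterpart of human miR-424, at -0.86 ± 0.08 and miR-15a-5p at -0.76 ± 0.09. The summed level of the 34 was 91308 to 103230.4 CPM at the high dose and 111423 to 139108 CPM in controls, with no overlap. At the middle dose it was 91731 to 123627 CPM, which overlaps the controls. Such a sum follows its most abundant members, and how often other sums separate was not counted. In the low dose on days 3 and 14, 0 of the 34 passed, as did 0 of all 328 miRNAs.

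Markers of other liver cells moved beside the arms, in both directions, and their part in the fall of miR-126a was not tested. In the high dose average 62.8% of all 328 miRNAs were called and 31.4% were called lower, and beside these shares the counts of such short lists are descriptions only. Of 6 hepatocyte miRNAs 4 fell and 2 rose, with a summed level of 239748 to 287535 CPM at the high dose and 226912 to 309919 CPM in controls. Of 7 stellate and smooth muscle markers 3 fell and 2 rose, with sums of 46113 to 60715 and 36619.8 to 49985 CPM. Of 8 white blood cell markers 3 fell and 1 rose (2049 to 3224 and 1711 to 3469 CPM), and of 4 red blood cell markers 1 fell and 1 rose (2262 to 4623 and 1521 to 4148 CPM). Of 6 bile duct markers 3 fell and 1 rose (2889 to 3813 and 3708 to 6370.4 CPM). The hepatocyte miRNAs with the largest changes were miR-802-5p (0.74 ± 0.16), miR-148a-3p (0.72 ± 0.09), miR-122-3p (-0.67 ± 0.10) and miR-194-5p (-0.57 ± 0.07). In the stellate list the 5p arm of miR-145 (miR-145-5p) was higher by 2.03 ± 0.15 and its other arm miR-145-3p fell, at -0.45 ± 0.11, while miR-143-3p rose by 0.32 ± 0.07 and miR-214-3p fell, at -0.92 ± 0.13. For blood cells the named changes were those of miR-342-3p (0.37 ± 0.15), miR-150-5p (-0.58 ± 0.11), miR-142-3p (-0.53 ± 0.13), miR-486 (0.47 ± 0.20) and miR-144-3p (-0.91 ± 0.19). For bile duct they were miR-429 (0.54 ± 0.17), miR-141-3p (-1.17 ± 0.19) and miR-200a-3p (-0.56 ± 0.12). Of the markers in the table, 0 on these 5 lists were at 0 in every library. The summed ranges of high dose and control libraries overlapped for all 5 of these lists, for bile duct only from 3708 to 3813 CPM.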

How the data were processed

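Small RNA libraries of 35 rat livers were analysed from a table of raw counts per mature miRNA, which the authors deposited as whole numbers with 763 rows and 37 columns. The build was rn6, per the submitters' processing notes. As to aligner, counter, annotation and reads with several matches, each is not given in the sources used here. Repeat runs of 2 samples were summed, so n counts samples. filterByExpr (minimum count 10, total 15) kept 328 miRNAs. All 12 groups were fitted together with edgeR 4.0.16 in R 4.3.3 (TMM scaling, robust quasi-likelihood F-test, 23 residual degrees of freedom), with Benjamini-Hochberg adjustment over the 328 miRNAs and a threshold of 0.05. Each SE was taken as the absolute log2 fold change over √F. Arm ratios, log2 of 3p over 5p counts with 0.5 added, were compared by exact permutation within days and adjusted over 96 hairpins. Groups were called non-overlapping from the lowest and highest CPM. Alternatives were other scalings, filters, DESeq2 1.42.0, a replicate block, thinning, single runs, fewer days and leaving out libraries. Each edgeR fit with libraries left out redid the filter and the scaling. Binomial intervals of arm shares cover counting error only, and those of log2 changes come from the edgeR fit and cover the spread between samples.

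On simulated data, the high dose average recovered 82.7% of 1.5-fold and 98% of 2-fold changes, with 6 false calls among 123 unchanged miRNAs, over 319 miRNAs. High dose day 14 recovered 30.6% and 68.4%, with 1 false call. These simulated counts came from 1 averaged control profile. They hold neither the 2 clusters nor control day 7 libraries that stand far out, so the rates need not apply to the real comparisons. The arm test recovered 90% of 30 hairpins shifted by 1 on the log2 scale, out of 96, with 0 false calls. Members and lists were chosen with earlier results of these data known. Named miRNAs were the arms, the 5 closest to each over group means (mean CPM at least 10), and the largest called changes of each list in the high dose average, up to 4 each way for the endothelial list and 2 for the others.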

Additional observations from a re-analysis of the deposited data

Results flagged for a closer look

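The effect of the low dose differed between days for both arms. Day 7 minus days 3 and 14 was -0.97 for miR-126a-3p (edgeR adjusted p = 0.000222) and -0.32 for miR-126a-5p (edgeR adjusted p = 0.0359). The 3 low dose day 7 libraries lay below the other 6 low dose libraries for both arms. In the first principal component they lay with the middle and high dose libraries, and 2 of their 3 controls, control day 7 replicates 2 and 3, stood farthest from them. Leaving both out gave -0.58 and -0.29. It also left control day 7 replicate 1 as the only control of that day, so whether the difference passes was not read from it.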

How the results depend on the processing

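The high dose average stayed between -0.83 and -0.58 for miR-126a-3p and between -0.60 and -0.45 for miR-126a-5p under every alternative other than leaving out a single library, and the middle dose average between -0.85 and -0.59 and between -0.53 and -0.36, all past the threshold in edgeR or DESeq2. Over all comparisons of the arms, 429 values under such settings kept direction and call, 37 changed sign, 11 lost the call and 2 gained one. With single libraries left out the numbers were 408, 34, 22 and 11. The cause of each change was not tested. Leaving out libraries or days uses fewer samples. With libraries left out, edgeR also redid the filter and the scaling, and these cannot be told apart from the loss of the library.

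The day 14 minus day 3 high dose effect, near 0, turned negative for both arms under DESeq2 size factors, the DESeq2 test and the CPM filter (-0.05 each), library size alone (-0.15), no low-count filter (-0.06), only the days compared (-0.07) and thinning (-0.11). Middle minus low on day 7 turned to 0.04 for miR-126a-3p and 0.02 for miR-126a-5p under both DESeq2 settings, to 0.03 for miR-126a-3p under the CPM filter, and to 0.07 and 0.04 with no filter. With no filter, high minus low on day 7 was 0.02 and 0.03, the low dose on day 3 was -0.05 for miR-126a-3p, and for miR-126a-5p the low dose on days 3 and 14 was -0.03, while the high dose on day 7 (-0.28), the middle dose on days 3 (-0.26) and 7 (-0.27) and the low dose day effect (-0.29, adjusted p = 0.177) lost their calls. High minus middle gained a call for miR-126a-5p under the CPM filter (-0.17) and for miR-126a-3p was 0.02 with library size alone and 0.01 without day 7. Control day 7 minus day 3 of miR-126a-3p gained a call with DESeq2 (0.51), and control day 14 minus day 3 was -0.10 with library size alone and 0.00, with its sign turned, with only the days compared. That fit also gave -0.05 for the low dose on day 3 (miR-126a-3p) and -0.01 on days 3 and 14 (miR-126a-5p), and thinning gave -0.02 for the low dose on day 3 (miR-126a-3p). The low dose average of miR-126a-3p lost its call with the first run alone (-0.25, adjusted p = 0.0509) or the second (-0.25, adjusted p = 0.0521), and without day 7 the averages were 0.07 and 0.03 and the low dose arm ratio 0.05.

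Leaving out control day 7 replicates 2 and 3 together was chosen after seeing the data. It left control day 7 replicate 1 as the only control of that day. Calls that ended there, and lower counts of called miRNAs, therefore do not measure the part of the libraries left out. The low dose change on day 7 was then -0.30 for miR-126a-5p and the low dose average -0.17 for miR-126a-3p. The low dose day effect was -0.58 for miR-126a-3p and -0.29 for miR-126a-5p.

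With single libraries left out, values of miR-126a-3p ranged from -0.89 to -0.47 (high dose day 14), -0.80 to -0.43 (middle dose day 14), -0.10 to 0.11 (low dose day 3), -0.09 to 0.34 (low dose day 14), -0.06 to 0.14 (low dose days 3 and 14), -0.41 to -0.20 (low dose average), -0.59 to -0.36 (low dose day 7 minus other days), -0.08 to 0.02 (high minus middle), -0.09 to 0.22 (middle minus low, day 7), -0.25 to -0.01 (high minus low, day 7), -0.60 to -0.23 (high dose, day 7 minus day 3), -0.27 to 0.13 (high dose, day 14 minus day 3), 0.28 to 0.63 (control day 7 minus day 3) and -0.19 to 0.20 (control day 14 minus day 3). Those of miR-126a-5p ranged from -0.37 to -0.23 (middle dose day 3), -0.16 to 0.06 (low dose day 14), -0.06 to 0.07 (low dose days 3 and 14), -0.20 to -0.07 (low dose average), -0.42 to -0.22 (low dose day 7 minus other days), -0.46 to -0.27 (low dose day effect), -0.17 to -0.09 (high minus middle), -0.08 to 0.07 (middle minus low, day 7), -0.22 to -0.03 (high minus low, day 7), 0.00 to 0.17 (high dose, day 7 minus day 3) and -0.17 to 0.04 (high dose, day 14 minus day 3). The arm ratio ranged from -0.28 to -0.17 (high dose) and -0.38 to -0.25 (middle dose).

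Deviations of same-numbered treated and control samples of a day correlated at -0.21 to 0.21 (median -0.05), with 6 of 24 pairs over 0.1. Those of other-numbered samples correlated at -0.36 to 0.36 (median 0.01), with 15 of 48 over 0.1. Pairing by replicate number was thus not seen. It is not excluded, because deviations cancel within such small groups. With the replicate block the low dose average of miR-126a-3p was -0.25 and not called (adjusted p = 0.0547), its day 14 minus day 3 high dose effect was -0.01 and its control day 14 minus day 3 was -0.03. The block called 205 miRNAs in the high dose average, against 206 without it, and 0 against 5 in control day 7 minus day 3. Counts of called miRNAs also moved for control day 7 minus day 3, from 5 to 22 with DESeq2 and 62 without control day 7 replicate 1, for high minus low on day 7, from 79 to 45 with no filter and 49 without high dose day 7 replicate 3, for middle minus low on day 7, from 33 to 13 without middle dose day 7 replicate 3, for high minus middle, from 57 to 30 without day 7, and for the low dose average, from 74 to 0 without day 7 and 115 without control day 7 replicate 1. Library size alone moved the median of all miRNAs by -0.15 in the middle dose average and -0.19 and -0.22 on day 14 of the high and middle doses. DESeq2 size factors moved it by 0.16 in high minus low on day 7 and by -0.15 in low dose day 7 minus days 3 and 14.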

Other observations

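Deviations from group means were also compared across 128 miRNAs with a mean of at least 100 CPM, a description chosen after the values were seen. Those of miR-126a-3p ran closest to miR-101b-3p (r = 0.84), miR-532-5p (0.77) and miR-103-3p (0.77), whose r with miR-126a-5p was 0.08, -0.02 and -0.04. Those of miR-126a-5p ran closest to miR-24-2-5p (0.62), miR-122-5p (0.61) and miR-192-5p (0.58), whose r with miR-126a-3p was 0.20, -0.17 and 0.18. The 35 libraries share depth, scaling and composition, so these are descriptions without a test.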
